A study of Mus musculus with 3 samples.

Results

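The 10 genes described here, Ier2, Ier3, Ier5, Btg1, Btg2, Gadd45a, Gadd45b, Gadd45g, Plk2 and Plk3, are regulators of growth and stress that many cell types transcribe within minutes of a stimulus. They were chosen by gene symbol from 55536 annotated genes, and each of the 10 was found in the tables. The rule used no measured value, but earlier results of these data were known when the members were chosen. The RNA came from the chromatin fraction of primary macrophages that had been grown from bone marrow of C57BL/6J mice and treated over 25 min using Lipid A, the portion of lipopolysaccharide sensed by TLR4, at 100 ng/ml. Total RNA was sequenced after depletion of ribosomal RNA in 3 libraries of this 1 group, labelled biological replicates 1, 2 and 3 and made from 1000, 250 and 500 ng of RNA. The labels name no genetic change and give no age or sex. All libraries were stimulated and no unstimulated sample is analysed here, so the values rank genes inside treated macrophages and carry no information on induction. Separate animals are not named for the replicates, so the spread between these samples may be technical. The p-values below test a slope on RNA amount over the 3 libraries. Each amount is 1 library, so they are not set against a spread between repeats of an amount.

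Immediate early genes are transcribed without new protein synthesis, mostly through transcription factors that are already present and wait for a signal, such as CREB, SRF and NF-kB. Many of them encode proteins that restrain the response that started them. The Ier proteins modulate transcription and kinase signalling, the Btg proteins recruit the CCR4-NOT complex that shortens the poly(A) tails of mRNAs, the Gadd45 proteins bind kinases upstream of p38 and JNK, and Plk2 and Plk3 are stress-responsive polo-like kinases. RNA on chromatin is rich in transcripts still being made or spliced.

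The RefSeq promoters used here held 9 of the 10 genes, and the 250 bases before each start site were searched on both strands for 6 motifs. Ier2 had no entry there, so its promoter was not searched. The cyclic AMP response element, the binding sequence of CREB and ATF factors (TGACGTCA), was present in 2 of the 9, Plk2 and Btg2, against 1.55% of 32851 promoters. It ran from 62 to 55 bases before the start of Plk2 and from 166 to 159 bases before that of Btg2. These promoter stretches (GRCm38.p6, the mm10 assembly) are shown because they hold that element, in capitals, at members of different families. The Plk2 stretch is chr13:110394794-110395043 on the plus strand and the Btg2 stretch chr1:134079156-134079405 on the minus strand.
Plk2: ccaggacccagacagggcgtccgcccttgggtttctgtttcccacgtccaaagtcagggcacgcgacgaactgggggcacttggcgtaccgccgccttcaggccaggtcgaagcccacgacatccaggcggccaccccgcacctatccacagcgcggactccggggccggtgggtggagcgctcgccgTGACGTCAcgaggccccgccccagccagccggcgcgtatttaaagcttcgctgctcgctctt
Btg2: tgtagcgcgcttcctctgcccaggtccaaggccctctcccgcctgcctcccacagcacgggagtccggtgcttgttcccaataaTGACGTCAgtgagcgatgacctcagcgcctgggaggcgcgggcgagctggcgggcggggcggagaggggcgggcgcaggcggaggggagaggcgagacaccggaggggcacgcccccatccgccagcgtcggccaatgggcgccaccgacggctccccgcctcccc
The TATA box (TATAAA) was found in 3 of the 9, Gadd45b, Btg1 and Gadd45g, against 12.4% of promoters. In Btg1 it spanned 26 to 21 bases and in Gadd45g 27 to 22 bases before the start, while in Gadd45b it spanned 46 to 41 bases before it. An NF-kB site was found in Ier3 (92 to 83 bases before the start) against 7.25% of promoters. None of the 9 held the CArG box bound by SRF (1.47% of promoters), the AP-1 site TGANTCA (6.75%) or an EGR site (GCGTGGGCG or GCGGGGGCG, 3.06%). No match overlapped that of another motif. A match is a string of letters in this window, and no binding was measured.

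The tables held 13525994, 19230763 and 19207049 expected counts in replicates 1, 2 and 3. Genes of the ribosomal locus took 8.46%, 27.1% and 23.1% of them. Over 8179 genes at 10 TPM or more (TPM is transcript abundance, corrected for gene length and library depth), this went with a shift of the median gene by 0.36 log2 units from replicate 2 to replicate 1, which was 0.02 without those genes. All 10 macrophage markers stood at or above 10 TPM. Of 25 markers of neutrophils, lymphocytes, erythroid, mast, stromal and endothelial cells, 2 reached 1 TPM (the neutrophil gene Ngp, 1.87, and the mast cell receptor Kit, 1.71) and 9 had 0 counts. Summed over the 25, these markers came to 6.31 to 8.78 TPM, against 2250 to 3703 TPM for the macrophage markers.

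By mean over the libraries, 8 of the 10 genes stood at 50 TPM or more and 4 at 100 TPM or more. Among 13993 genes of at least 300 nt with enough counts to test, 20.1% and 9.83% did so. The median of the members' means was 88.8 TPM, against 13.8 TPM for those genes, 8.59 TPM for genes with at least 10 counts in all and 1.09 TPM for protein-coding genes. Plk2 was highest at 548 ± 145 TPM (SD, n = 3), rank 134 of 46615 genes by mean level. Gadd45b was next at 418 ± 59.2 TPM (rank 196), followed by Ier2 at 254 ± 72.5 TPM (rank 398) and Btg2 at 171 ± 67.1 TPM (rank 675). Ier3, Gadd45a, Ier5 and Btg1 formed a middle tier between 76.3 and 96.9 TPM. Gadd45g and Plk3 came last, at 6.98 ± 2.86 and 6.60 ± 3.09 TPM. These gene levels include forms annotated as retained introns, which took 51.9% of the transcript TPM of Plk2 and 21.4% of that of Gadd45b. The levels of Plk2 and Gadd45b were not compared without those forms. Of the 9 pairs of neighbours in this order, 2 differed beyond their spread, Gadd45b above Ier2 and Btg1 above Gadd45g: the first was higher in 3 of 3 libraries and the mean ± SD ranges did not overlap. The other 7 pairs did not meet both conditions, which compare means and not ratios within a library. Read within libraries, Btg2 was above Ier3 by 0.72, 0.72 and 1.04 log2 units in replicates 1, 2 and 3 and Plk2 above Gadd45b by 0.71, 0.24 and 0.15, while the order of the other 5 pairs changed between libraries.

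**Figure D1:**
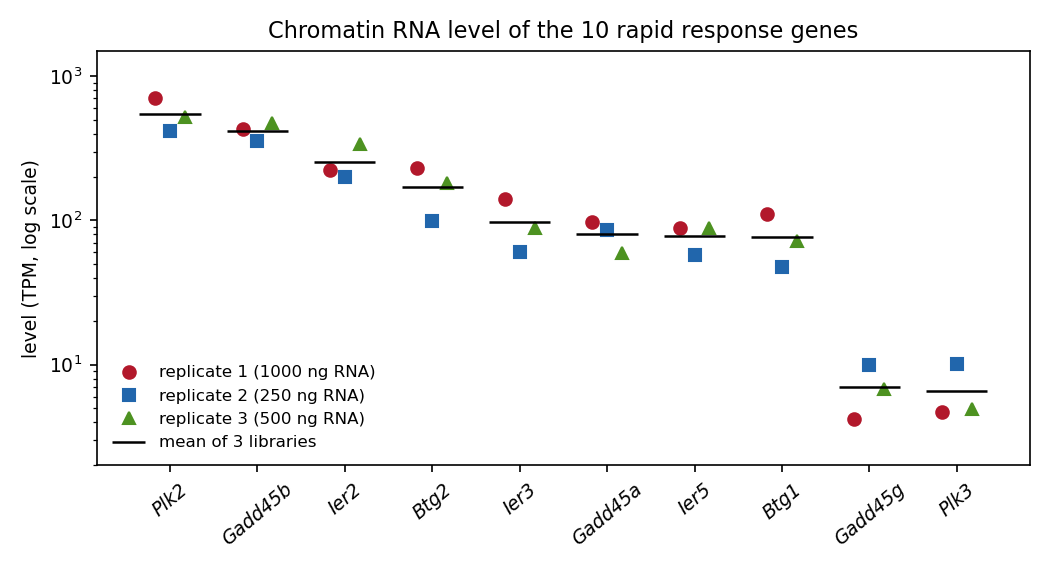
Level of each of the 10 genes in TPM (vertical axis, log scale) in the 3 libraries (points) with their mean (line), ordered by mean. Plk2 to Btg1 lie between 47.2 and 704 TPM in each library, and Gadd45g and Plk3 between 4.20 and 10.2 TPM.

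Among the Ier genes, Ier2 was the most abundant in every library. Ier2, a small nuclear regulator encoded by a single exon (mm10, chr8:84661331-84662852, minus strand), was at 225, 201 and 337 TPM in replicates 1, 2 and 3, on 1717, 2363 and 3769 counts. Replicate 3 was above both others, by 0.63 log2 units over replicate 2 and 0.84 over replicate 1 once the shift of the median gene was taken out. Ier5, also a single exon (chr1:155096361-155099636, minus strand), encodes a partner of the heat shock factor Hsf1 and of the phosphatase PP2A. It was at 88.1, 57.5 and 88.5 TPM, with replicate 2 the lowest. Ier2 exceeded Ier5 by 1.70 ± 0.30 log2 units (3.24-fold), in 3 of 3 libraries. An exact test on 3 paired libraries cannot give a p below 0.25, so the family ratios carry no test. The kallisto-type tables gave both genes lower means, 148 and 44.3 TPM, as they did every other member except Plk3 (6.74 against 6.60 TPM).

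Ier3, known as IEX-1, is an NF-kB target that acts on cell survival and kinase signalling (chr17:35821684-35822923, plus strand, 2 exons). Its levels were 141, 60.5 and 88.8 TPM on 759, 493 and 690 counts. Replicate 1 was the highest and replicate 2 the lowest, 0.87 log2 units apart after centring on the median gene. In this bulk RNA, fewer cells that transcribe a gene and less RNA per cell cannot be told apart. With a mean of 96.9 ± 41.1 TPM, Ier3 ranked between Ier2 and Ier5, but its mean ± SD range overlapped that of Ier5.

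Btg2 was above Btg1 in each library. Btg2, an antiproliferative gene and p53 target (chr1:134075170-134079120, minus strand, 2 exons), was at 232, 99.5 and 182 TPM. Btg1, its close relative that is known for keeping lymphocytes quiescent (chr10:96617006-96622809, plus strand, 2 exons), was at 110, 47.2 and 71.7 TPM. Both were lowest in replicate 2 and highest in replicate 1. The ratio between them moved less than either level: Btg2 exceeded Btg1 by 1.08, 1.07 and 1.35 log2 units, with a mean of 1.17 ± 0.16 (2.24-fold). The mean of Btg2 was 102 TPM in the kallisto-type tables.

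The 3 Gadd45 genes lay far apart. Gadd45b, an NF-kB target that binds the kinases Map3k4 and Map2k7 (chr10:80930073-80932204, plus strand, 4 exons), was at 430, 354 and 470 TPM on 2004, 2313 and 3024 counts. On these TPM it varied least of the 10, with a coefficient of variation of 14.2%. Without the ribosomal locus genes its levels were 466, 486 and 617 TPM in replicates 1, 2 and 3. Those of Plk2 were then 764, 573 and 683 TPM, a slightly smaller relative spread. Gadd45a, the p53 target of the family (chr6:67035096-67037457, minus strand, 4 exons), was at 97.6, 85.2 and 59.4 TPM, with replicate 3 the lowest. Gadd45b exceeded Gadd45a by 2.39 ± 0.51 log2 units (5.25-fold). Gadd45g (chr13:51846678-51848468, plus strand, 4 exons), a growth arrest gene of the same family, was far lower in every library. It held 19, 67 and 47 counts, or 4.20, 9.92 and 6.80 TPM, and its log2 ratio to Gadd45b was -5.98 ± 0.77 (63.2-fold lower). E230016M11Rik, on the opposite strand, overlaps Gadd45a over 859 nt and held 176, 119 and 119 counts. Whether the counting used strand was not stated in the labels or headers, so the split of reads between them is uncertain.

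Plk2 and Plk3 lay at opposite ends of the order. Plk2, a kinase of centriole duplication and of the stress response (chr13:110395046-110400844, plus strand, 14 exons), was at 704, 418 and 521 TPM on 7499, 7233 and 8913 counts. Plk3, a related stress kinase (chr4:117128655-117133963, minus strand, 15 exons), was at 4.69, 10.2 and 4.93 TPM on 56, 197 and 87 counts. Replicate 2 was the lowest library for Plk2 and the highest for Plk3. The log2 ratio of Plk3 to Plk2 was -6.44 ± 0.97 (86.7-fold lower). Tctex1d4 overlaps the end of Plk3 by 84 nt on the other strand and held 0, 7 and 2 counts.

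The RNA amount was the only labelled difference between the libraries, and its slope was fitted over 14108 genes with edgeR's quasi-likelihood test. Each amount is 1 library, so amount and replicate cannot be told apart. Btg1 rose by 0.57 log2 units per doubling (SE 0.13, 1.49-fold, adjusted p = 0.00395), in the order of the amounts in 3 of 3 libraries. Plk3 fell by 0.80 (SE 0.21, adjusted p = 0.0160). Its level also fell in the order of the amounts, from 10.2 TPM at 250 ng to 4.93 at 500 ng, with little further change to 4.69 at 1000 ng. So 1 of 10 was called higher and 1 lower, beside 4.71% of all tested genes higher and 3.09% lower. Ier3 (slope 0.44, SE 0.14, adjusted p = 0.0501) and Btg2 (0.42, SE 0.14, adjusted p = 0.0506) missed the threshold, and both passed it with RLE size factors in edgeR (adjusted p = 0.0473 and 0.0489; over 7 alternatives, 0.0473 to 0.160 and 0.0489 to 0.154). The Btg2 slope was 0.09 without replicate 2 and 0.75 without replicate 1, while that of Ier3 was 0.45 and 0.44. Replicate 3 has the middle amount, so leaving it out hardly moves a slope. Gadd45g, with the fewest counts, had a slope of -0.75 (SE 0.27, adjusted p = 0.0746). The slopes of Ier2, Ier5, Gadd45a, Gadd45b and Plk2 lay between -0.10 and 0.16, with adjusted p from 0.502 to 0.923. The median slope was 0.08 over the 10 and -0.01 over all tested genes. Plk3 was not called with DESeq2 (adjusted p = 0.154) or on kallisto-type counts (edgeR, adjusted p = 0.0517), and its adjusted p ran from 0.00347 to 0.154 over 7 alternatives. Its slope was -0.32 without replicate 2 and -1.22 without replicate 1, while that of Btg1 was 0.59 and 0.55.

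**Figure D2:**
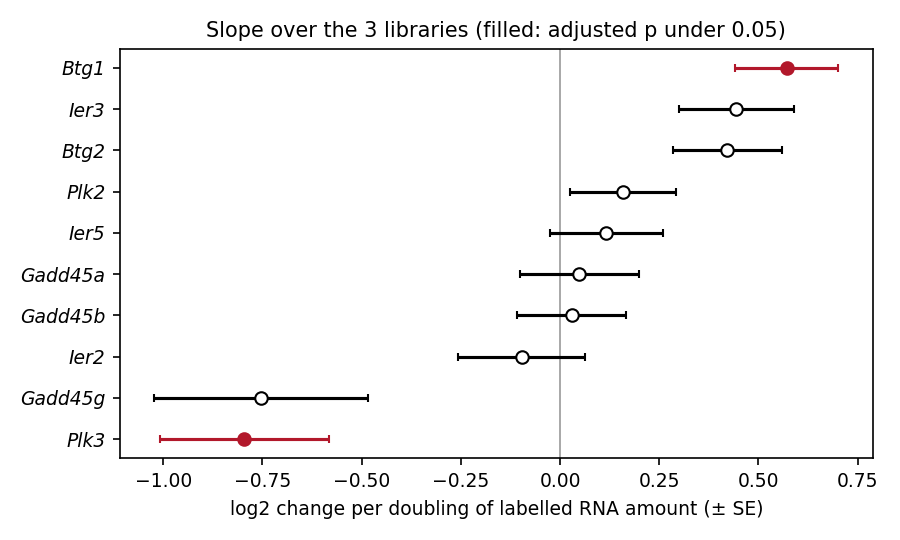
Log2 change per doubling of the labelled RNA amount for each gene (points) with its standard error (bars), from edgeR over 3 libraries; filled points passed an adjusted p under 0.05. Btg1 at 0.57 and Plk3 at -0.80 are filled, and Ier3, Btg2 and Gadd45g lie away from 0 without passing.

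The members did not share 1 pattern over the libraries. After centring on the median gene, replicate 1 was the highest library for 4 of the 10 (Ier3, Btg1, Btg2 and Plk2), replicate 2 for 3 (Gadd45a, Gadd45g and Plk3) and replicate 3 for 3 (Ier2, Ier5 and Gadd45b). Replicate 2 was the lowest library for 5, replicate 1 for 4 and replicate 3 for 1. The centred log2 ratio of replicate 1 to replicate 2 was -1.60 for Gadd45g and -1.48 for Plk3, while it was 0.87 for Ier3 and 0.86 for both Btg1 and Btg2. The median coefficient of variation of the TPM values was 33.8% for the 10, against 23.1% for the 13993 tested genes and 20.7% for the 8135 of them at 10 TPM or more. It was 34.3% for the 37 other immediate early genes that were tested. The 2 lowest members, with 19 to 197 counts, also carry the most counting error. Without centring, Ier2, Gadd45a and Gadd45b were higher in replicate 1 than in replicate 2, and without the ribosomal locus genes they were lower.

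**Figure D3:**
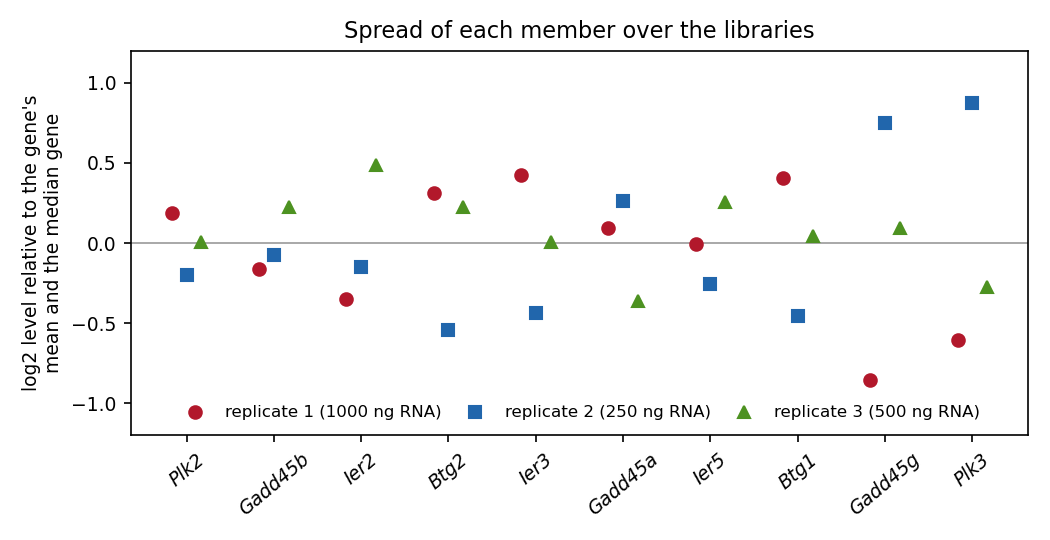
Log2 level of each gene in each library relative to its own mean over 3 libraries and to the median gene (vertical axis, 0 is no deviation). Replicate 1 is above replicate 2 for Ier3, Btg1, Btg2, Plk2 and Ier5 and below it for the other 5 genes.

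Plk2, like many genes here, had part of its counts on an unspliced form. The share on all its retained-intron forms, 34.8%, compares with a median of 26.2% over 5626 genes with such forms (30.02% in the kallisto-type tables) and lay at percentile 59.9 of them. Plk2-203 (chr13:110395048-110397363), annotated as a retained intron, is 1 uninterrupted exon that holds introns 1 to 4 of the 13 introns of the coding form Plk2-201. It took 30.6%, 27.4% and 26.2% of the gene's transcript counts, a mean of 28.0 ± 2.30% (SD, n = 3). The coding form took 65.2 ± 3.65%. All 4 retained-intron forms of Plk2 together took 38.8%, 33.8% and 31.7%, a mean of 34.8 ± 3.65%. In the kallisto-type tables this share was 38.8 ± 4.13%. The exon-intron boundaries of the 4 held introns are shown because they set the forms apart. Each line gives 30 bases of the exon and 30 bases of the intron as Plk2-203 holds them, with the GT at the start of the intron in capitals, from the GENCODE transcripts (mm10, plus strand). The windows start at 110395408, 110396093, 110396363 and 110396691 of chromosome 13 and lie inside the coding part. The last line gives the same exon end joined to exon 2 as in Plk2-201.
Plk2 intron 1: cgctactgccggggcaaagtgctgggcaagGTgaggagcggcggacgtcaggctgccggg
Plk2 intron 2: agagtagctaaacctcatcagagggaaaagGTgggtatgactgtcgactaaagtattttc
Plk2 intron 3: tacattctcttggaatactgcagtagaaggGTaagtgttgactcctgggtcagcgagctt
Plk2 intron 4: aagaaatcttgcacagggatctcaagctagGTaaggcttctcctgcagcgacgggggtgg
Plk2 exon 1 to exon 2: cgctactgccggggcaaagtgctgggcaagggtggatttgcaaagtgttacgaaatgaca
These introns are 577, 153, 198 and 186 nt long. A read inside them can be counted for Plk2, since an annotated transcript holds them.

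Gadd45b and Gadd45a were split over several forms as well. Gadd45b-201, the coding form, took 66.7 ± 4.38% of the counts of Gadd45b. Gadd45b-203 took 20.8 ± 5.62%: it is annotated as protein coding but holds intron 1 of Gadd45b-201 whole, so the annotated type does not mark it as unspliced. The retained-intron form Gadd45b-202 took 14.0%, 11.7% and 11.7%, a mean of 12.5 ± 1.32%, and 20.7 ± 1.30% in the kallisto-type tables. It holds no intron of Gadd45b-201 whole and 1 in part. Of the counts of Gadd45a, retained-intron forms took 26.2%, 48.9% and 43.4%, a mean of 39.5 ± 11.8%, with replicate 1 well below both others. Most of it was Gadd45a-202 at 30.5 ± 7.0%, and forms that hold an intron of Gadd45a-201 whole took 9.03 ± 4.82%.

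Gadd45g had the same kind of split on few counts. Its retained-intron form Gadd45g-202 took 34.8%, 37.3% and 14.5% of 19, 67 and 47 counts. The exact Clopper-Pearson 95% intervals, which cover counting error only, were 16.3 to 61.6%, 25.8 to 49.99% and 6.2 to 28.3%. It fell short of the minimum of 50 counts in each library set for this share. The median share over the 5626 genes that met the minimum and have such a form was 26.2%, with Gadd45a at percentile 65.4 and Gadd45b at 29.4. These percentiles go by annotated type, so that of Gadd45b leaves out Gadd45b-203.

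The remaining members gave little information on splicing. Ier2, Ier3, Ier5 and Btg2 have 1 annotated transcript each, and Btg1-201 took 96.8 ± 1.34% of the counts of Btg1. Ier3, Btg1, Btg2 and Plk3 contain introns but no transcript annotated as a retained intron, so a read inside most of their introns has no entry to be counted on. Plk3-202, a processed transcript that holds intron 12 of Plk3-201, took 20.1%, 40.8% and 10.4% of the gene's counts. The coding forms of Plk3 could not be told apart: Plk3-203 took 50.02 ± 14.6% in the RSEM-type tables and 18.0 ± 19.2% in the kallisto-type tables.

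**Figure D4:**
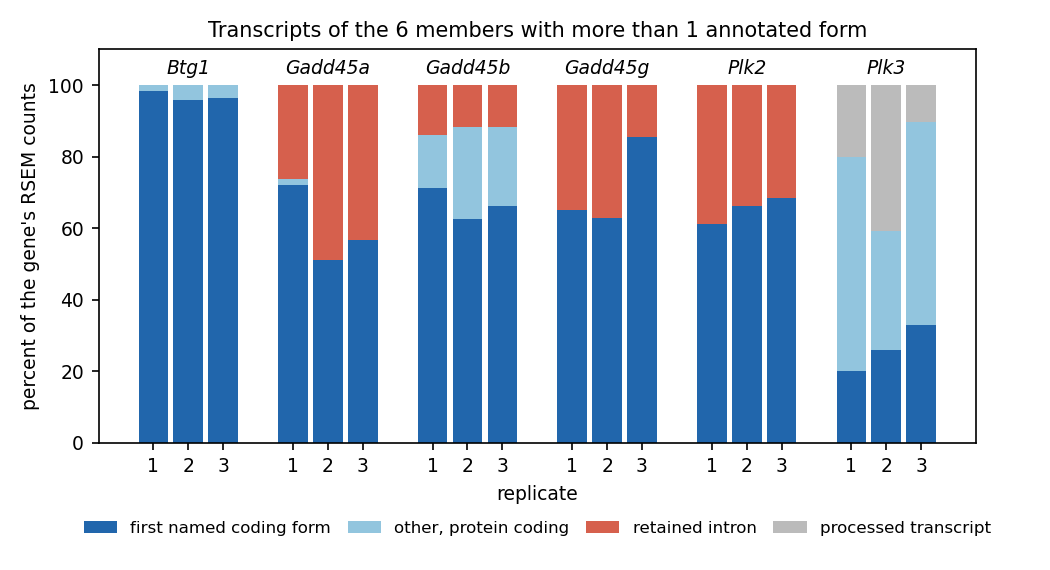
Percent of each gene's transcript counts (vertical axis) on its first named coding form, on other protein-coding forms, on retained-intron forms and on processed transcripts, per replicate (bars), for the 6 members with more than 1 annotated transcript. Retained-intron forms take 31.7 to 38.8% in Plk2 and 11.7 to 14.0% in Gadd45b, and vary more in Gadd45a and Gadd45g.

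The members stood among the other immediate early genes, and 8 of the 10 had means above those of all listed relatives. Of 42 other immediate early genes, 36 reached 1 TPM, and their median was 70.6 TPM. The highest were Dusp1, a MAP kinase phosphatase, at 737 ± 112 TPM, the survival gene Mcl1 at 688 ± 309 and the nuclear receptor Nr4a1 at 675 ± 120, all with means above that of Plk2. Ccn1 and Ccn2, genes of matricellular proteins, had 0 counts in each library, which allows up to 0.222 CPM (counts scaled to library size, from a floor of 3 counts) in replicate 1 and 0.156 CPM in the others. Of the 37 tested, 7 were called higher and 2 lower with RNA amount (edgeR), and 3 and 1 of 35 with DESeq2. The 2 lower with edgeR were the AP-1 subunit gene Fosb and the transcription factor gene Srf, named after their values were seen. Over all tested genes, edgeR called 4.71% higher and 3.09% lower, and DESeq2 called 260 higher and 94 lower of 9730. The 9 genes listed as relatives of the members had a median of 3.09 TPM. Ier3ip1 is listed among them by its name, as an interacting protein of Ier3. Tob2, an antiproliferative relative of the Btg genes, was highest at 23.5 ± 6.75 TPM, followed by Plk4, the kinase of centriole duplication, at 14.7 ± 5.09 and the secretory pathway gene Ier3ip1 at 6.09 ± 0.30. Btg3 was at 3.64, Tob1 at 3.09, the mitotic kinase Plk1 at 2.01 and Ier5l at 0.862 TPM, and Btg4 and Plk5 had 1 count in all. The 8 members other than Gadd45g and Plk3 each had a higher mean than any of these relatives. Gadd45g and Plk3, at 6.98 and 6.60 TPM, were below Tob2 and Plk4. Of the 7 relatives tested with edgeR 0 were called, with 1 at an unadjusted p under 0.05, and DESeq2 called 0 of 2.

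The p53 pathway holds several members as targets, and its other targets were uneven. Of 24, 22 reached 1 TPM, with a median of 13.2 TPM. The cell cycle inhibitor Cdkn1a was highest at 538 ± 190 TPM, followed by Mdm2, the ligase that degrades p53, at 442 ± 139 and the stress cytokine Gdf15 at 173 ± 41.3. Perp, a gene of cell adhesion, had 0 counts. Of 21 tested with edgeR, 2 were called higher, Cdkn1a and the cell death gene Pmaip1 (named after its value was seen), and 0 lower. At an unadjusted p under 0.05 in edgeR, 4 were higher and 1 lower. DESeq2 called 1 of 17 higher and 0 lower. Over all tested genes, edgeR called 4.71% higher and 3.09% lower, and DESeq2 called 260 higher and 94 lower of 9730.

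The proteins that the members act through were nearly all transcribed. Of 16 genes of the CCR4-NOT complex and other Btg partners, 15 reached 1 TPM, with a median of 35.7 TPM. The poly(A) binding protein gene Pabpc1 was at 252 ± 78.4 TPM, the scaffold Cnot1 at 149 ± 37.2 and the deadenylase Cnot6l at 67.6 ± 20.9, while the homeobox gene Hoxb9 had 0 counts. Of 15 tested with edgeR, 2 were called higher and 0 lower, and DESeq2 called 0. The 2 called were Cnot4 and Cnot11, named after their values were seen. At an unadjusted p under 0.05 in edgeR, 2 were higher and 2 lower. All 14 genes of Gadd45 partners and p38 and JNK upstream kinases reached 1 TPM, with a median of 37.6 TPM. Next to Cdkn1a, which is in both lists as is Ercc5, Mapk14, the p38 alpha kinase, was at 97.0 ± 26.2 and its activator Map2k3 at 87.0 ± 16.3 TPM, and the mitotic kinase Cdk1 was lowest at 2.61 ± 0.75. Of these 14, edgeR called 1 higher, Cdkn1a, and 0 lower, with 2 higher and 1 lower at an unadjusted p under 0.05. DESeq2 called 0. All 9 Ier partners reached 1 TPM, with a median of 42.7 TPM, among them the PP2A catalytic gene Ppp2ca at 67.1 ± 12.9 and the heat shock factor gene Hsf1 at 63.4 ± 12.3 TPM. The PP2A regulatory gene Ppp2r2d was lowest at 16.6 ± 2.42 TPM. Of these 9, edgeR and DESeq2 called 0, with 3 and 2 at an unadjusted p under 0.05. Calls on these partner lists stand beside 4.71% of all tested genes higher and 3.09% lower with edgeR. With DESeq2 they stand beside 260 higher and 94 lower of 9730. For the counts at an unadjusted p, here and in the lists above, no share over all tested genes is given.

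**Figure D5:**
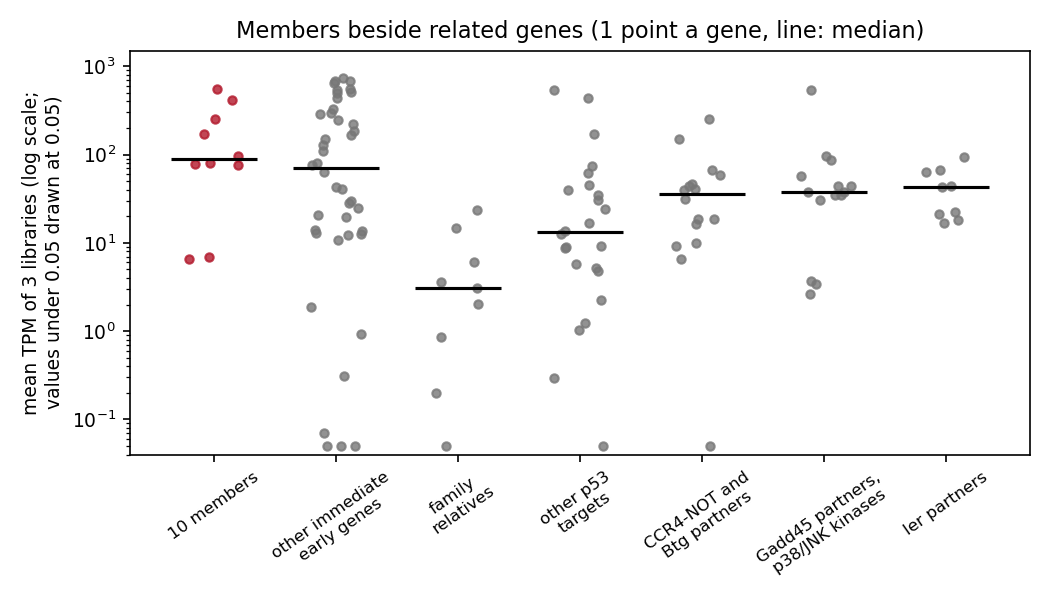
Mean level of each gene over 3 libraries in TPM (vertical axis, log scale, values under 0.05 drawn at 0.05) for the 10 members and 6 lists of related genes (1 point a gene, line at the median). The members' median of 88.8 TPM lies beside 70.6 for other immediate early genes and 3.09 for family relatives.

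The protein-coding genes most like the 3 highest members were found by the root-mean-square difference in log2(TPM + 1) over 3 libraries among 21888 candidates. For Plk2 they were the splicing factor gene Srsf11 (difference 0.058) at 659, 424 and 513 TPM and the macrophage growth factor receptor gene Csf1r (0.080) at 686, 382 and 536 TPM. For Gadd45b they were Ddx17, an RNA helicase gene (0.147), and Acin1 (0.149). For Ier2 they were the lipid phosphatase gene Inpp4a (0.093) and the interferon-stimulated gene Oas2 (0.194). None of these 6 is among the immediate early genes listed here, and likeness of level over 3 libraries says nothing of shared control.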

How the data were processed

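RNA of the chromatin fraction was measured in 3 libraries of 1 group, mapped by their labels. The authors deposited expected counts and TPM in gene and transcript tables with the column names of RSEM, and estimated counts and TPM in transcript tables with those of kallisto, per the file headers. The tables refer to mm10 and GENCODE M21, per the deposited readme. The aligner, its version and the strand setting are not stated in the sources used here.

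TPM were recomputed from expected counts and effective lengths over 46615 genes of at least 300 nt, because the deposited TPM are scaled over small RNAs and spike-ins too. Slopes on log2 RNA amount used edgeR 4.0.16 in R 4.3.3 (counts rounded, TMM, filterByExpr with 1 group, quasi-likelihood F test, Benjamini-Hochberg over 14108 genes, called under 0.05) and had 1 residual degree of freedom. On simulated counts of this comparison at a dispersion of 0.02, the test recovered 57 of 200 genes changed by 0.5 log2 units per doubling (14296 genes, 2 false calls) and 196 of 200 at 1 unit (14397 genes, 11 false calls). At a dispersion of 0.1 it recovered 1 (13989 genes) and 21 (14007 genes). Retained-intron shares are percents of transcript counts. Promoters come from RefSeq (GRCm38.p6) and 9 of 10 genes matched. Other steps used Python 3.11.15, pandas 2.3.3 and scipy 1.17.1.

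Members and gene lists were chosen with earlier results of these data known. Named genes were the 10 members, the 3 highest and the lowest of each list of related genes, the family relatives, and the 2 genes most like each of the 3 highest members. Marker lists are given by their counts. One gene that this rule selects is not reported here. Alternatives were other TPM scales, the kallisto-type tables, CPM, RLE factors, DESeq2 1.42.0, other filters, other count minimums and leaving out each replicate. A count filter set by the slope design was added after seeing the data.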

Additional observations from a re-analysis of the deposited data

How the results depend on the processing

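No paired analysis was possible because all libraries belong to 1 group. The median level of the members was 31.8 with the deposited TPM, 30.6 with the posterior mean TPM and 119 as CPM. The scale differs between these, and the first pair is scaled over small RNAs and spike-ins too. As CPM, which ignores gene length, Ier2 exceeded Ier5 by 0.46 log2 units and Btg2 exceeded Btg1 by 0.63, and the latter was 0.92 in the kallisto-type tables. All family ratios kept their direction under each alternative run. Of the 10 members, 6 kept their rank in the kallisto-type tables, 2 as CPM, and 6 to 8 when 1 library was left out. The median retained-intron share was 51.9% by TPM and 38.8% in the kallisto-type tables.

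The number of members called with RNA amount was 4 with RLE factors (Ier3 and Btg2 added), 1 with DESeq2 and 1 with kallisto-type counts (Btg1 in both), and 3 among genes of at least 300 nt (Ier3 added). DESeq2 gave no adjusted p for Gadd45g. Btg1 was called under every alternative with a test. All-gene calls, 1101 of 14108 with edgeR, were 1022 of 14108 with RLE factors and 1032 of 13993 among genes of at least 300 nt. With DESeq2 they were 354 of 9730 and with kallisto-type counts 503 of 22970. The count filter set by the slope design gave 661 of 15077. Leaving out replicate 1 or 2 changed the sign of slopes that were not called: Ier2 ran from -0.82 to 0.63, Ier5 from -0.27 to 0.50, Gadd45a from -0.51 to 0.61 and Gadd45b from -0.28 to 0.34. The cause of these changes was not tested. Depth limits Gadd45g and Plk3, on 19 to 197 counts a library.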
